A study of Oryza sativa with 9 samples.

Results

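Transcripts of 9 circadian clock genes of rice were followed across wild-type and mutant shoots in the cold. The genes were chosen by locus identifier as LHY, the pseudo-response regulators PRR73, PRR37, PRR95, PRR59 and PRR1, and GI, LUX and ELF3, and were ordered by the time of day at which each is usually most abundant. These usual phases were not measured in the chilled plants. All 9 were present among the 55801 loci of the count table, and all 9 were among the 26112 genes with enough counts to be tested. The names of 8 of the 9 occur in a RefSeq rice gene table within 1 Mb of the place interpolated from locus numbers. The name PRR59 does not occur in that table.

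The plant clock is a set of transcription factors that repress each other in turn over the day. LHY, a MYB factor, peaks around dawn and in Arabidopsis represses genes of the evening. The PRR proteins, repressors with a receiver-like domain and a CCT motif, follow in sequence from morning to dusk, with PRR1 (the counterpart of Arabidopsis TOC1) last. In Arabidopsis, LUX and ELF3 belong to the evening complex, which represses morning and afternoon genes at night, and GI, a large plant-specific protein, holds the light-sensing F-box proteins that degrade clock repressors. In rice, several of these genes also set heading date, among them PRR37, known as the heading date locus Hd2, and ELF3, known as Hd17.

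The study sequenced RNA from shoots of 4-leaf rice seedlings of the ZH11 background after 2 d at 4 °C, with 3 libraries each of wild type (WT), an ossro1c knockout and an osdreb2b knockout. OsSRO1c and OsDREB2B are named in the series as partners in a complex, and the mutants were compared with WT to find the genes that it regulates in the cold. All 9 libraries came from chilled plants, so no value below is a response to cold. The labels give neither the hour of sampling nor the day length, and with a single time point a shifted rhythm and a changed level cannot be told apart. Nor do the labels say how many plants or independent mutant lines stand behind a library, and all p-values rest on the spread among these libraries, which may be technical. In bulk shoots, fewer cells that make a transcript and less of it per cell cannot be told apart either.

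Library totals ran from 58398026 to 69336224 counts, and the clock genes held from 1950 to 170377 counts each in any library. Levels are given in CPM, a gene's counts as a share of its library after TMM scaling between libraries. Changes are log2 fold changes from edgeR's quasi-likelihood test with Benjamini-Hochberg adjustment over all genes tested and a threshold of 0.05. OsSRO1c (LOC_Os03g12820, a name that could not be checked in the gene table) stood at 20.3% of its WT level in libraries labelled ossro1c and at 6.52% in libraries labelled osdreb2b. OsDREB2B (LOC_Os05g27930) stood at 40.7% and 184% of WT in the same order. Each targeted transcript was thus higher under its own label than under the other mutant's, and OsDREB2B was above WT in the libraries labelled as its knockout. Whether the mutant labels are exchanged, the alleles leave the transcript in place, or neither holds cannot be told apart here. Every value given below for "ossro1c" or "osdreb2b" therefore belongs to the libraries so labelled, and its genotype is in doubt. Of the green-tissue markers found in the gene table, CAB2R (LOC_Os01g41710) and a RBCS locus (LOC_Os12g17600, of a gene family that may share reads), the summed level, most of it RBCS, was 6625 to 6904 CPM in WT, 5017 to 7397 in ossro1c and 14363 to 15206 in osdreb2b. The RBCS locus missed the threshold in ossro1c (log2 -0.21, adjusted p = 0.13) and was higher in osdreb2b by 0.89 (adjusted p = 1.4e-05). CAB2R was at 104 ± 4.79 CPM (SD, n = 3) in WT, 105 ± 29.7 in ossro1c (log2 0.02, adjusted p = 0.93) and 2563 ± 201 in osdreb2b (24.7-fold above WT, edgeR adjusted p = 2e-10). Over all 5 green-tissue loci listed, 1 was higher and 2 were lower in ossro1c, with log2 changes from -2.47 to 0.80. In osdreb2b 5 were higher, by 0.89 to 4.63. Of all tested genes, 29.4% were higher and 31.4% lower in ossro1c, and 29.9% were higher in osdreb2b. Of 2 root markers found in the gene table Lsi2 was at 0 in every library. Lsi1 (LOC_Os02g51110) was at 2.18 to 2.82 CPM in WT, 15.8 to 19.8 in ossro1c and 8.49 to 11.8 in osdreb2b, a rise of 7.22-fold and 4.22-fold (edgeR adjusted p = 5.8e-09 and 1.2e-07). A further root locus listed (LOC_Os02g37190), whose name is not in the gene table, had 0 counts in WT and ossro1c and 4, 6 and 0 in osdreb2b. Of 4 markers of dividing cells OSH1 was at 0 in every library, and the summed level was 9.79 to 11.6 CPM in WT, 11.1 to 14.6 in ossro1c and 28.1 to 33.6 in osdreb2b. Most of that sum was CDKB2;1, with means of 7.49 CPM in WT, 7.74 in ossro1c and 27.3 in osdreb2b. CYCB1;1 missed the threshold in osdreb2b (log2 -0.60, edgeR adjusted p = 0.094), and PCNA rose in both ossro1c (0.98) and osdreb2b (0.92). The part of these markers in the clock values was not tested. The third ossro1c library differed most from its group, with a chi-square per degree of freedom of 84.2 to 84.4 against 8.56 to 14.3 for all other replicate pairs.

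Most clock transcripts were lower in ossro1c than in WT. In osdreb2b the evening and afternoon transcripts LUX, PRR1, PRR95 and ELF3 were 1.89-fold to 5.40-fold higher than in WT. Of the others called there, the morning gene PRR73 was higher (log2 0.37). The afternoon gene PRR59 (-0.68) and the evening gene GI (-0.21) were lower. In ossro1c, 8 of 9 clock genes fell and 0 rose, where 31.4% of all tested genes fell and 29.4% rose. In osdreb2b, 5 rose and 2 fell, where 29.9% of tested genes rose and 29.6% fell. Between the mutants, 9 of 9 clock genes were higher in osdreb2b, where 22.9% of tested genes were higher and 23.6% lower. The median log2 change of the 9 was -0.65 in ossro1c, 0.37 in osdreb2b and 0.84 between the mutants, and that of all tested genes was 0.00, 0.03 and -0.02. Both comparisons with WT share the WT libraries, and both hold large differences, with 60.9% and 59.6% of tested genes past the threshold, as against 46.5% between the mutants.

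**Figure D1:**
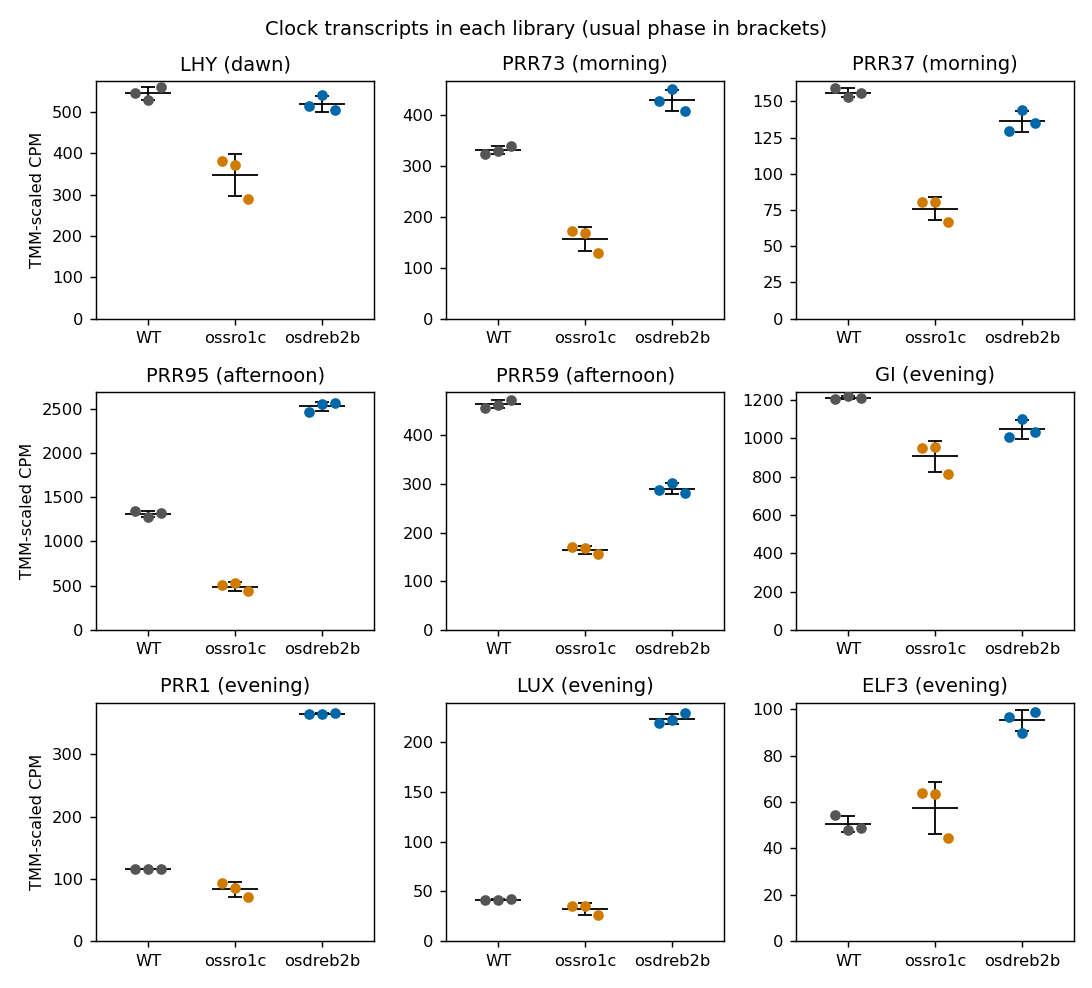
Level of each clock transcript in TMM-scaled CPM (vertical axes start at 0) by genotype, with a point per library, a bar at the mean and whiskers of 1 SD (n = 3). The ossro1c libraries lie lowest for 8 of 9 genes, and the osdreb2b libraries lie far above WT for PRR95, PRR1, LUX and ELF3.

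LHY (LOC_Os08g06110, chromosome 8) is the dawn component. Its level was 545, 529.9 and 562 CPM in WT replicates 1 to 3, 381, 373 and 289.7 CPM in ossro1c, and 515, 541 and 504 CPM in osdreb2b. The ossro1c libraries lay below all others, while osdreb2b and WT overlapped. LHY fell by 0.65 on the log2 scale in ossro1c (SE 0.09, adjusted p = 3.4e-05, edgeR, n = 3), to 348 ± 50.3 CPM from 546 ± 15.9 CPM (SD). In osdreb2b, at 519.9 ± 18.7 CPM, the change was -0.07 (95% interval -0.27 to 0.13, adjusted p = 0.54), and its sign turned to 0.04 and 0.07 under upper-quartile scaling and raw library totals. Between the mutants LHY was higher in osdreb2b by 0.58 (SE 0.09, adjusted p = 0.00015).

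PRR73 (LOC_Os03g17570, chromosome 3) and PRR37 (LOC_Os07g49460, chromosome 7) are the morning members and form a pair of closely related genes in rice. PRR73 was at 324, 330.3 and 339.9 CPM in WT, 171, 168 and 129.9 CPM in ossro1c, and 427, 451 and 408 CPM in osdreb2b. Its groups did not overlap, and the order was osdreb2b, WT, ossro1c. PRR37 was at 159, 153 and 156 CPM in WT, 80.5, 80.8 and 66.7 CPM in ossro1c, and 129.8, 144 and 135 CPM in osdreb2b. For PRR37 WT was highest, with osdreb2b just under it and ossro1c far below. Both fell about as far in ossro1c, PRR73 by 1.08 (SE 0.10, adjusted p = 3.4e-07) and PRR37 by 1.04 (SE 0.09, adjusted p = 1.6e-07) on the log2 scale. In osdreb2b they parted. PRR73 rose by 0.37 (SE 0.10, adjusted p = 0.004), and PRR37 changed by -0.19 (95% interval -0.38 to -0.01, adjusted p = 0.062), which missed the threshold. PRR37 did pass, at -0.20 (adjusted p = 0.0016), without ossro1c replicate 3, and at -0.19 (adjusted p = 0.0021) in a fit on the 6 libraries of WT and osdreb2b alone.

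PRR95 (LOC_Os09g36220, chromosome 9) and PRR59 (LOC_Os11g05930, chromosome 11), the afternoon members, are likewise a related pair, and they showed the largest falls of the clock genes in ossro1c. PRR95 was at 1339, 1273 and 1324 CPM in WT, 503, 526 and 435 CPM in ossro1c, and 2469.9, 2553 and 2567 CPM in osdreb2b. Every osdreb2b library thus lay above every WT library, and every ossro1c library below. PRR59 was at 457, 463 and 473 CPM in WT, 171, 167 and 155 CPM in ossro1c, and 288, 302 and 281 CPM in osdreb2b. For this gene WT was highest, osdreb2b intermediate and ossro1c lowest, with no overlap. In ossro1c PRR95 fell 2.69-fold (log2 -1.43, SE 0.07, adjusted p = 1.8e-09) and PRR59 fell 2.82-fold (log2 -1.50, SE 0.07, adjusted p = 4.2e-10). In osdreb2b PRR95 rose 1.93-fold (log2 0.95, SE 0.07, adjusted p = 9.1e-08), whereas PRR59 fell by 0.68 on the log2 scale (SE 0.07, adjusted p = 8.7e-07). The afternoon pair therefore moved together under one mutant label and in opposite directions under the other.

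PRR1 (LOC_Os02g40510, chromosome 2) closes the PRR sequence at dusk. It was at 115.3, 115.1 and 116.0 CPM in WT, 92.5, 85.8 and 70.2 CPM in ossro1c, and 365, 365 and 367 CPM in osdreb2b. Replicates were tight in WT and osdreb2b, with a coefficient of variation of 0.381% and 0.379%, and wider in ossro1c (13.8%), and the 3 groups did not overlap. PRR1 rose 3.17-fold in osdreb2b (log2 1.66, SE 0.09, adjusted p = 2.3e-09). In ossro1c it fell by 0.48 (SE 0.09, adjusted p = 0.00036), a call lost under raw library totals (-0.16, adjusted p = 0.17).

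LUX (LOC_Os01g74020, chromosome 1), a GARP-type DNA-binding factor and the DNA-binding part of the evening complex, showed the largest rise of the clock genes. Its level was 41.0, 41.4 and 41.8 CPM in WT, 35.3, 35.6 and 25.7 CPM in ossro1c, and 219, 223 and 229 CPM in osdreb2b. All osdreb2b libraries lay far above the others, and all ossro1c libraries lay below WT, replicate 3 the furthest. LUX rose 5.40-fold in osdreb2b (log2 2.43, SE 0.11, adjusted p = 4e-10), and 10.4% of all tested genes changed more in that comparison. In ossro1c it fell by 0.36 (SE 0.11, adjusted p = 0.009), a call lost under upper-quartile scaling (-0.20, adjusted p = 0.12), under raw totals (-0.04, adjusted p = 0.78) and on the 6 libraries alone (-0.26, adjusted p = 0.13).

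ELF3 (LOC_Os06g05060, chromosome 6), the scaffold of the evening complex, was the clock gene that did not fall in ossro1c. It was at 54.6, 48.0 and 48.8 CPM in WT, 63.8, 63.6 and 44.4 CPM in ossro1c, and 96.8, 89.99 and 98.8 CPM in osdreb2b. Replicates 1 and 2 of ossro1c lay above all WT libraries and replicate 3 below them. The ossro1c change was 0.18 (95% interval -0.08 to 0.45, adjusted p = 0.21), and without replicate 3 it was 0.34 and passed (adjusted p = 0.00022), as it did under upper-quartile scaling (0.34, adjusted p = 0.026) and raw totals (0.51, adjusted p = 0.0035). In osdreb2b ELF3 rose 1.89-fold (log2 0.92, SE 0.12, adjusted p = 1.9e-05).

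GI (LOC_Os01g08700, chromosome 1), which in rice acts upstream of the flowering gene Hd1, stood apart from the other evening members in osdreb2b. It was at 1205, 1221 and 1212 CPM in WT, 951, 954 and 813 CPM in ossro1c, and 1005, 1103 and 1034 CPM in osdreb2b. WT was highest and ossro1c lowest, without overlap. GI fell by 0.42 in ossro1c (SE 0.07, adjusted p = 0.00021) and by 0.21 in osdreb2b (SE 0.07, adjusted p = 0.024), the smallest changes past the threshold among the clock genes in osdreb2b and, after LUX, in ossro1c. Both falls missed the threshold under raw totals (-0.10, adjusted p = 0.29, and -0.07, adjusted p = 0.46). The osdreb2b fall also missed it under upper-quartile scaling and when any WT library or osdreb2b replicate 1 or 3 was left out (adjusted p = 0.059 to 0.098). Among evening genes, then, 3 of 4 rose in osdreb2b, by 0.92 to 2.43, and GI was slightly lower.

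**Figure D2:**
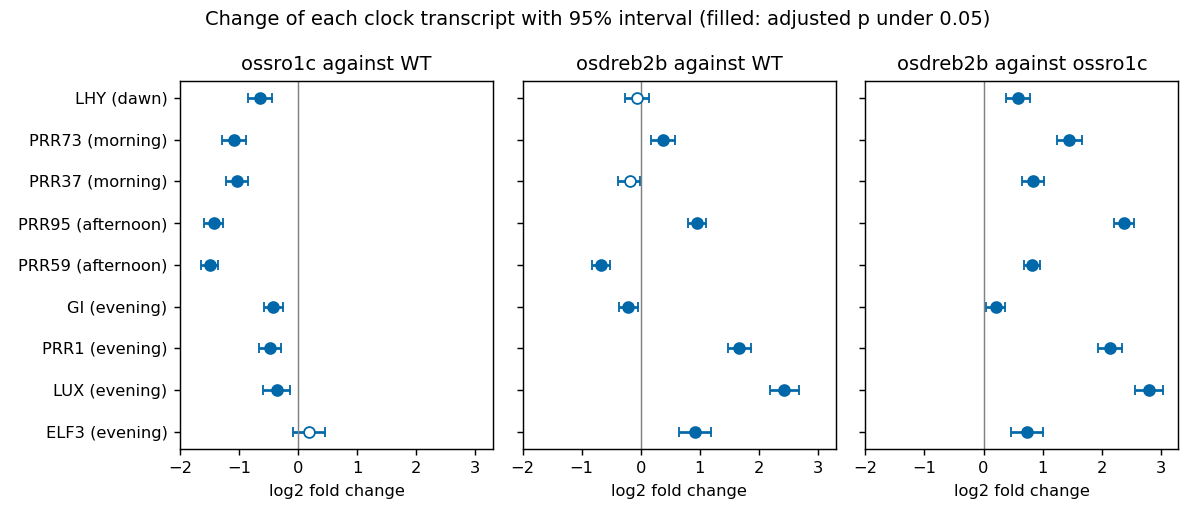
Log2 fold change of each clock transcript (horizontal axis) with its 95% interval in the 3 comparisons, ordered by usual phase; filled points passed an adjusted p of 0.05. Falls in ossro1c are deepest for the afternoon pair at -1.43 and -1.50, rises in osdreb2b are largest for PRR1 and LUX at 1.66 and 2.43, and all 9 points lie to the right of 0 between the mutants.

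In the direct comparison of the mutants all 9 differences had the same sign. LUX was higher in osdreb2b than in ossro1c by 2.80 (SE 0.11, adjusted p = 2.7e-10), PRR95 by 2.37 (SE 0.08, adjusted p = 4.2e-11) and PRR1 by 2.14 (SE 0.09, adjusted p = 4.8e-10). These are sizes exceeded by 4.51%, 6.54% and 7.99% of tested genes. PRR73 followed at 1.45, then PRR37 at 0.84, PRR59 at 0.82, ELF3 at 0.73 and LHY at 0.58, each past the threshold under all alternatives run. GI was the weakest at 0.21 (SE 0.07, adjusted p = 0.032) and missed the threshold in 11 of 17 alternatives, so the count was 8 or 9 of 9. Libraries of the mutants did not overlap for 9 of 9 clock genes, as for 54.9% of tested genes. Against WT, 8 of 9 did not overlap in either mutant, beside 67.2% of tested genes for ossro1c and 70.0% for osdreb2b. A two-sided exact permutation test of any such gene has p = 0.1, which is the least that groups of 3 and 3 can reach.

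By order of levels, 4 genes (PRR73, PRR95, PRR1 and LUX) ran osdreb2b, WT, ossro1c with each step past the threshold. PRR59 and GI ran WT, osdreb2b, ossro1c, again with each step past it. LHY and PRR37 were highest in WT and osdreb2b, which did not differ beyond the threshold, and lowest in ossro1c. ELF3 was highest in osdreb2b, and its other groups did not differ beyond the threshold. The morning, afternoon and evening classes each held genes of different order.

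Replicate 3 of ossro1c was the lowest of its group for 9 of 9 clock genes, where it was lowest for 34.6% of all tested genes. Its levels were 69.7% (ELF3) to 92.0% (PRR59) of the mean of replicates 1 and 2. Without it, 8 clock genes still fell in ossro1c and 1, ELF3, rose. Its RBCS and CAB2R levels were the highest of its group (7259 and 139 CPM, against 4923 to 5103 and 82.4 to 94.0), and their part in the clock values was not tested.

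Ratios of counts within a library do not depend on how libraries are scaled to each other, and are given here as log2 values with the WT mean set to 0. Relative to LHY, LUX stood at 2.49, 2.44 and 2.58 and PRR1 at 1.74, 1.67 and 1.78 in the osdreb2b libraries. In ossro1c both lay slightly above every WT library (-0.04 to 0.04), LUX at 0.29, 0.33 and 0.22 and PRR1 at 0.20, 0.12 and 0.20, where LHY itself was lower. ELF3 relative to LHY was raised in both mutants, to 0.83 ± 0.08 in ossro1c and 0.99 ± 0.12 in osdreb2b (SD, n = 3). Relative to LHY the ratio of PRR59 was lowered in both, to -0.84 ± 0.15 and to -0.61 in each osdreb2b library. The mean of the 4 evening genes relative to the mean of LHY, PRR73 and PRR37 stood at 0.67, 0.66 and 0.62 in ossro1c and at 1.18, 1.09 and 1.23 in osdreb2b, with WT libraries between -0.03 and 0.02. By this ratio of means, all 6 mutant libraries had transcripts classed as evening higher against dawn and morning ones than any WT library. The evening gene GI went the other way in osdreb2b, at -0.19, -0.12 and -0.12 relative to LHY. In ossro1c the evening ratio rests on unequal falls and on ELF3, which did not fall. In osdreb2b it rests on rises of PRR1, LUX and ELF3.

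**Figure D3:**
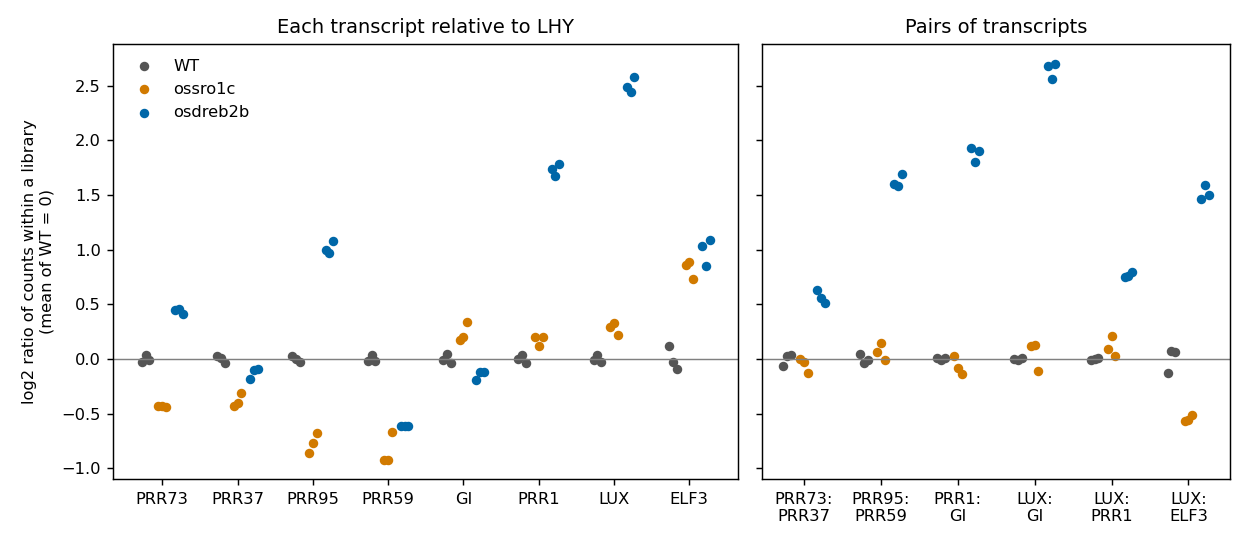
Log2 ratio of counts within each library, with the WT mean set to 0 (vertical axis), for each clock gene relative to LHY (left) and for pairs of clock genes (right); points are libraries, coloured by genotype. The pairs PRR73:PRR37, PRR95:PRR59 and PRR1:GI stay near 0 in ossro1c and rise to means of 0.57, 1.63 and 1.88 in osdreb2b.

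Within the related pairs and between PRR1 and GI, the balance moved in osdreb2b and stayed within 0.15 of WT in every ossro1c library. PRR95 relative to PRR59 was at 1.60, 1.58 and 1.69 in osdreb2b and at 0.06, 0.15 and -0.01 in ossro1c, with a WT SD of 0.05. PRR73 relative to PRR37 was at 0.57 ± 0.06 in osdreb2b and -0.05 ± 0.07 in ossro1c. PRR1 relative to GI was at 1.88 ± 0.07 and -0.06 ± 0.09. LUX relative to ELF3, its partner, went up by 1.52 ± 0.07 in osdreb2b and down to -0.55 ± 0.03 in ossro1c. These ratios, being combinations of chosen genes, carry no p-value.

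The pattern most like that of each clock gene was measured as the Euclidean distance between log2 CPM over the 9 libraries, each gene centred on its own mean. Among the clock genes, LHY lay closest to PRR37 and to GI (distance 0.49 each), PRR59 to PRR37 (0.68), and LUX and PRR1 to each other (1.03). PRR1 was the 68th nearest of all tested genes to LUX, and LUX the 207th nearest to PRR1. PRR37 and GI ranked 306th and 309th for LHY, and PRR37 ranked 421st for PRR59. ELF3 was unlike the other clock genes, its closest being LHY at 1.32, and lay nearest among the named light and flowering genes to PHYC, the phytochrome C gene, at 0.42, which ranked 39th among all tested genes. GI lay nearest to Hd16 (0.63), a casein kinase gene of heading date control. PHYC and Ehd3 were the closest such genes to PRR73, PRR95 and PRR1 (1.19 to 2.35), Ehd3 to LHY (0.83) and PRR37 (1.17), Ehd4 to PRR59 (1.53), and Hd1 to LUX (2.36), ranking 938th to 4722nd among all tested genes.

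The clock takes in light through phytochromes, and the 3 phytochrome genes were measured beside it. PHYB (LOC_Os03g19590) was at 71.6, 64.4 and 60.4 CPM in WT, 142, 151 and 101 CPM in ossro1c, and 189, 184 and 201 CPM in osdreb2b. It rose 2.01-fold in ossro1c (log2 SE 0.13, adjusted p = 1e-05) and 2.92-fold in osdreb2b (log2 SE 0.13, adjusted p = 1.5e-07), so both mutant groups lay above WT. PHYA (LOC_Os03g51030) rose by 0.78 in ossro1c (adjusted p = 2.4e-05) and by 1.01 in osdreb2b (adjusted p = 2e-06). PHYC (LOC_Os03g54084) followed the ELF3 pattern, with 62.0 ± 2.62 CPM for WT, 57.2 ± 11.9 CPM for ossro1c (log2 -0.12, adjusted p = 0.44) and a rise of 0.78 in osdreb2b (adjusted p = 9e-05). Between the mutants PHYC and PHYB were higher in osdreb2b, by 0.90 and 0.54, and PHYA had a log2 difference of 0.23 (adjusted p = 0.095). By count, 2 of 3 phytochrome genes rose in ossro1c, where 29.4% of all tested genes did, and 3 of 3 in osdreb2b, where 29.9% did.

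Heading date genes are the best known output of the rice clock. Of 9 such genes found in the gene table, 6 were tested, and 2 rose and 1 fell in ossro1c, 4 rose and 1 fell in osdreb2b, and 3 were higher and 1 lower in osdreb2b than in ossro1c. With 29.4% of all tested genes higher and 31.4% lower in ossro1c, 29.9% and 29.6% in osdreb2b, and 22.9% and 23.6% between the mutants, the counts in ossro1c lie near the background. Hd1 (LOC_Os06g16370), a CONSTANS-type factor downstream of GI, was at 2.04, 1.67 and 1.73 CPM in WT, 4.58, 5.04 and 4.72 CPM in ossro1c, and 11.5, 11.9 and 12.9 CPM in osdreb2b. It was low but well separated between groups, rising by 1.40 in ossro1c (SE 0.15, adjusted p = 2.6e-06) and by 2.74 in osdreb2b (SE 0.15, adjusted p = 3.2e-09). Ehd4 (LOC_Os03g02160), a zinc finger activator of heading, fell by 0.61 in ossro1c (adjusted p = 0.00026) and by 0.99 in osdreb2b (adjusted p = 3.4e-06). MADS50 (LOC_Os03g03070), a MADS-box activator, rose by 0.53 in ossro1c (adjusted p = 0.0046) and by 0.38 in osdreb2b (adjusted p = 0.03). Ehd3 (LOC_Os08g01420), a PHD finger factor, had means of 38.1 ± 3.79 CPM for WT and 33.7 ± 2.42 CPM for ossro1c (adjusted p = 0.13) and rose by 0.35 in osdreb2b (adjusted p = 0.0055). DTH8 (LOC_Os08g07740), a subunit of a CCAAT-binding factor, had 0, 10 and 0 counts in WT, 0, 3 and 13 counts in ossro1c, and 166, 86 and 162 counts in osdreb2b, where it was called higher (adjusted p = 0.00072). Ehd2 (LOC_Os10g28330), at 0.255 ± 0.116 CPM in WT and 0.512 ± 0.274 CPM in osdreb2b, missed the threshold (adjusted p = 0.19).

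Hd3a (LOC_Os06g06320), which encodes a mobile flowering signal, had 0 counts in all 9 libraries. MADS14 had 0 to 18 counts and MADS15 0 to 4 counts in any library, and none of these 3 genes was tested. Hd16 (LOC_Os03g57940) was at 40.5 ± 0.408 CPM in WT and fell by 0.33 in ossro1c (adjusted p = 0.0065) and 0.58 in osdreb2b (adjusted p = 9.3e-05). Over the 10 phytochrome, heading date and Hd16 genes tested, the median change was 0.41 in ossro1c, 0.89 in osdreb2b and 0.38 between the mutants, where the clock genes had -0.65, 0.37 and 0.84.

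**Figure D4:**
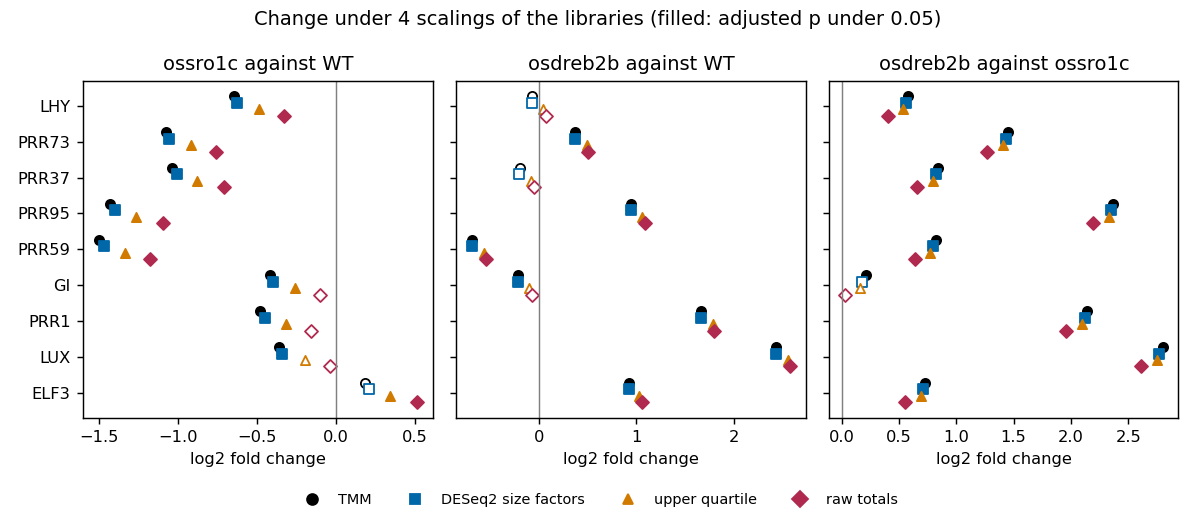
Log2 fold change of each clock transcript (horizontal axis) in the 3 comparisons under 4 scalings of the libraries; filled symbols passed an adjusted p of 0.05. Against WT, upper-quartile scaling and raw totals move all points to the right, which takes the ossro1c falls of GI, PRR1 and LUX out of the called genes under raw totals and lifts ELF3 to 0.51, while the osdreb2b rises of PRR95, PRR1, LUX and ELF3 keep their calls.

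Scaling bore most on the small changes. Raw library totals moved the median of all tested genes to 0.32 in ossro1c, 0.17 in osdreb2b and -0.20 between the mutants, and upper-quartile scaling to 0.16, 0.15 and -0.06. Under raw totals 5 clock genes fell in ossro1c (LHY, PRR73, PRR37, PRR95 and PRR59) and 1, ELF3, rose, with a median over the 9 genes of -0.33. The share of calls that were higher moved with raw totals from 48.4% to 63.2% in ossro1c and from 49.2% to 35.3% between the mutants.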

How the data were processed

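RNA-seq counts per rice locus were used from 9 libraries of chilled shoots, 3 per genotype, grouped by the labels. The deposited values are whole-number counts, not normalised, per the file headers and the values; 0 columns were left unused. Tools listed in the submitters' processing notes, with no role stated, were DESeq2, StringTie 2.1.4, HISAT2 2.2.1 and fastp 0.23.4. For the genome build, annotation, strand use and handling of reads shared by related genes, the answer is not given in the sources used here. Depth was 58398026 to 69336224 counts per library.

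Genes were kept by filterByExpr, scaled by TMM and fitted over all 9 libraries in edgeR 4.0.16 (R 4.3.3, limma 3.58.1) by robust quasi-likelihood with 1 coefficient per group, without a replicate block. SEs were taken as the size of the log2 fold change over the root of the F statistic, and 95% intervals use the fit's degrees of freedom. The step was tested on simulated counts. The clock genes and the lists of partners (11 loci), light input (13) and heading date genes (16) were chosen with earlier results of these data known. Listed genes were counted and named where their name occurs in the RefSeq gene table (assembly ASM3414082v1) within 1 Mb of the place interpolated from locus numbers, as 1, 3 and 9 did; 1 further gene is not reported here. Named from each list and comparison were up to 3 genes of smallest adjusted p and the most abundant that missed it. Planned promoter and protein comparisons were not run, since no sequences were used here. Replicate numbers did not pair the samples. Alternatives were DESeq2 1.42.0, other scalings and filters, subsets of libraries and the replicate block.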

Additional observations from a re-analysis of the deposited data

How the results depend on the processing

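Of 459 alternative values for single clock genes, 429 kept direction and side of the threshold, 23 no longer passed, 5 newly passed and 2 changed sign. The 2 are LHY in osdreb2b, at 0.04 with upper-quartile scaling and 0.07 with raw totals, neither past the threshold. Clock genes higher in ossro1c numbered 0, but 1 under upper-quartile scaling, raw totals and without ossro1c replicate 3 (0 to 1 with a library left out). Those lower numbered 8, but 7 under upper-quartile scaling and on the 6 libraries alone, and 5 under raw totals. Clock genes lower in osdreb2b numbered 2, but 1 under upper-quartile scaling and raw totals. They numbered 3 on the 6 libraries alone, and 1 to 3 with a library left out. Light, heading date and Hd16 genes lower in ossro1c numbered 2, but 1 under upper-quartile scaling, raw totals and the 6 libraries alone, and 3 without ossro1c replicate 3. Those lower in osdreb2b than in ossro1c numbered 2, but 1 without a filter and on the 6 libraries alone, and 0 to 2 with a library left out. Counting all listed loci instead of those found in the gene table gave 17 higher and 10 lower in ossro1c, 22 and 7 in osdreb2b, and 15 and 11 between the mutants. These counts are out of 35 genes tested. Of all tested genes, 29.4% were higher and 31.4% lower in ossro1c, 29.9% and 29.6% in osdreb2b, and 22.9% and 23.6% between the mutants. Beyond the shifts named, the cause was not tested.

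Same-numbered replicates of different groups deviated together no more than others (correlations -0.009 to 0.022 against -0.036 to 0.025), so the samples share only a number; 4 of 9 libraries correlated best with their own number. With the replicate block, 8 clock genes fell in ossro1c, 5 rose and 2 fell in osdreb2b, and 9 were higher between the mutants; over all genes 7501 rose and 8165 fell in ossro1c. Promoter windows were not compared, for want of sequences here. With 1950 or more counts per clock gene and library, depth did not limit these comparisons, whereas Ehd2 and DTH8 rest on few counts.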
